A study of Mus musculus with 9 samples.

Results

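The 10 genes described here encode the ubiquitin-like modifier ISG15 with the enzymes that attach and remove it (*Isg15*, *Uba7*, *Ube2l6*, *Herc6* and *Usp18*), the Mx GTPases (*Mx1* and *Mx2*), the exonuclease ISG20 (*Isg20*), and the neighbours viperin and CMPK2 (*Rsad2* and *Cmpk2*). They were chosen by gene symbol, and 10 of 10 were found among the 52550 genes of the expression file. The mouse RNA-Seq experiment comprised 9 samples of plasmacytoid dendritic cells (pDCs), 3 for each genotype of an *Ncf1* knock-in, with C57BL/6 as the labelled strain and C57BL/6J mice crossed to the founders per the methods: WT (G/G), heterozygous (G/A) and homozygous (A/A). In every sample the pDCs came from spleen, were sorted as CD11c-intermediate, SiglecH+ and PDCA1+ cells, and were cultured with R848, a small-molecule ligand of TLR7 and TLR8, for 12 hours. Only A/A replicate 1 is described, and 8 libraries were not analysed here. There was thus neither an unstimulated sample nor a second genotype to set the levels against, no replicate error could be given, and no test was made.

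Type I IFN binds its receptor on the cell surface, and the kinases JAK1 and TYK2 then activate transcription factors of the STAT family. These act with IRF9 and bind the IFN-stimulated response element (ISRE), a DNA motif near the start of IFN-stimulated genes (ISGs). Working products of the 10 genes act at different steps of antiviral defence. These run from tagging of proteins with ISG15 to degradation of RNA and the making of a nucleotide that stops viral polymerases. RefSeq lists *Mx1* and *Mx2* of the mouse as transcribed pseudogenes, and whether these pDCs made a working Mx protein was not tested. pDCs are known for making large amounts of type I IFN when TLR7 or TLR9 is engaged, and they respond to it themselves.

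The library held 31408298 reads over 17664 genes with reads. *Ncf1*, the edited gene, had 1079 reads per 1000000 (CPM), which does not show its allele. Of the 11 pDC markers, 11 had reads, with 10293 CPM together. They include *Bst2* (1657 CPM) and *Siglech* (374 CPM), whose products were used in the sort, and *Bst2* is also among the other ISGs below. The lists of other cell types are shorter, so the sums are not like for like. The markers of other cell types summed to 184 CPM for conventional DCs (4 of 5 with reads, *Cd209a* listed at 0), 111 CPM for macrophages (5 of 5), 24.3 CPM for neutrophils (2 of 4, *Ly6g* and *Mpo* at 0) and 6.69 CPM for B cells (3 of 4, *Pax5* at 0). T cell markers were listed at 0 in 4 of 4 genes, and erythroid markers summed to 0.0955 CPM (1 of 4 with reads). In a bulk library fewer cells of a type and less RNA per cell cannot be told apart, and the part of other cell types in the levels below was not tested. The methods give the mice as females of 10 to 12 weeks of age, whereas the Y-linked genes *Ddx3y* and *Eif2s3y* had 102 and 86.1 CPM and *Xist* was listed at 0. The library therefore went against the stated sex, and every level below comes from it.

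Promoters are shown first, because the reference sequence is what the 10 genes can be compared on beyond a single library. Windows of 300 bases, from 250 before to 50 after the annotated start, were taken from RefSeq on the GRCm38.p6 build for 7 of the 10 genes. *Usp18*, *Mx1* and *Mx2* had no entry. Each window was searched on both strands for the core of the ISRE, which is GAAA, any 2 bases and GAAA again, and for the IFN-γ activation site (GAS), TTCNNNGAA with N as any base, an element of IFN-γ signalling. The exact ISRE core lay in 2 of 7 promoters, those of *Isg15* and *Rsad2*, beside 3.99% of 27025 genes with a window. GAS letters lay in 1 of 7, that of *Isg20*, beside 9.55% of these genes.

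The matching stretches follow 5′ to 3′ on the strand of the gene, with the matched letters in capitals. The *Isg15* stretch (chr4:156200850-156200921, minus strand) runs from 103 to 32 bases before the start and holds 3 overlapping ISRE matches in a row. The *Rsad2* stretch (chr12:26456538-26456597, minus strand) runs from 145 to 86 bases before the start and holds 1 match, which lies on the opposite strand and so reads TTTCATTTTC here. The *Isg20* stretch (chr7:78913326-78913384, plus strand) runs from 98 to 40 bases before the most upstream of its 3 annotated starts and holds the GAS letters.
*Isg15*: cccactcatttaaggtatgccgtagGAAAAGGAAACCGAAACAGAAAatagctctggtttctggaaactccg
*Rsad2*: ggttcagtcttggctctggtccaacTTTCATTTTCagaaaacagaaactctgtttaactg
*Isg20*: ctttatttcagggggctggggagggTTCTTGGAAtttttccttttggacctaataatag

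In *Isg15* the matches started 78, 72 and 66 bases before the annotated start, so that each shared 4 bases with the next. The *Rsad2* match lay 120 to 111 bases before the start, and the *Isg20* GAS lay 73 to 65 bases before it. Of 25 other ISGs with a promoter window, 14 held the exact ISRE core and 6 the GAS letters. When the core was required to be followed by CT, as in the longer form of the element, 0 of 7 promoters matched, beside 10 of 25 other ISGs and 0.303% of all genes with a window. When 1 mismatch in the 8 fixed letters was allowed, a search added after the data had been seen, 5 of 7 promoters matched (*Herc6*, *Isg15*, *Isg20*, *Rsad2* and *Uba7*). That looser search also matched 25 of 25 other ISGs and 38.9% of all genes with a window. *Cmpk2* and *Ube2l6* held no match even then, which says only that these letters are not in this window. The *Uba7* promoter held a pair of such near matches that share 4 bases, between 27 and 12 bases before the start. Another near match in this window lay 4 to 13 bases after the start. The start used here is that of RefSeq, base 107975567. The gene span given below starts at 107975505, so the pair lies before the start by RefSeq but inside that span. The pair is shown in capitals in a stretch of 30 bases (chr9:107975533-107975562, plus strand).
*Uba7*: agtctagTTTCACTTTTGGTTTCctgaaat

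Each of the 10 genes was expressed at a high level in A/A replicate 1. Together they held 337690 reads, or 1.08% of the library, and *Usp18* and *Rsad2* supplied 53.4% of these. Their median level was 763 CPM, against 6.34 CPM over all genes with reads. Because a long gene collects more reads than a short one at the same transcript number, levels of different genes were compared as reads per kilobase of exon, with the union of the annotated exons as the length. On that scale the median of the 10 genes was 7266, against 59.6 over all genes with reads and 120 over protein-coding genes with reads. The 10 genes lay between percentiles 94.3 and 99.8 of genes with reads, 9 of 10 at or above percentile 95 and 4 of 10 at or above percentile 99.

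**Figure D1:**
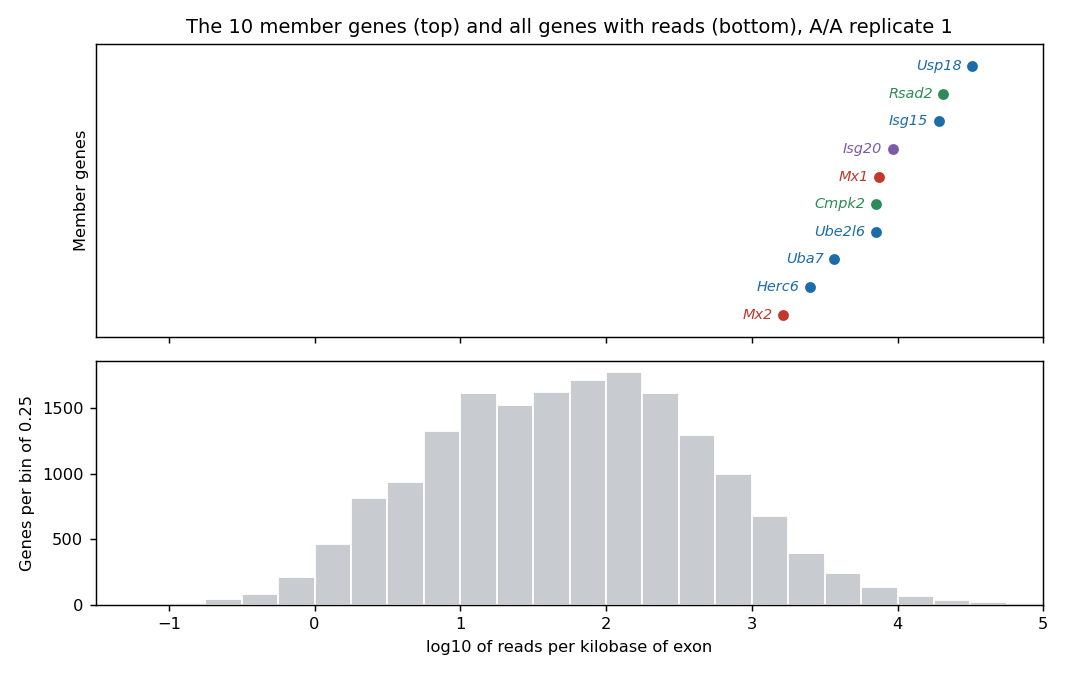
Top, the level of each of the 10 genes in A/A replicate 1, on the log10 scale of reads per kilobase of exon (x axis, shared by both panels; vertical position gives the order only). Bottom, the number of genes with reads in each bin of 0.25 on that scale. The 10 genes sit in the right tail, from 1633 reads per kilobase for *Mx2* to 32576 for *Usp18*, far from the median of 59.6 over all genes with reads.

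ISG15 is made as a ubiquitin-like protein that is joined to other proteins in an enzyme cascade like that of ubiquitin, and it is also secreted. *Isg15* (ENSMUSG00000035692.6, GRCm38 chromosome 4, 156199424 to 156200818, minus strand, 2 exons) had 14486 reads, 461 CPM (95% Wilson CI, 454 to 469). Its annotated transcript is the shortest of the set, 756 bases, and its level per kilobase was 19161 (95% CI, 18852 to 19476). The length correction decided its place: *Isg15* ranked 3 of the 10 genes per kilobase but 8 of 10 by CPM.

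The activating enzyme (E1) of ISG15 is UBA7, the conjugating enzyme (E2) is UBE2L6 and the main ligase (E3) in mice is HERC6. *Uba7* (ENSMUSG00000032596.14, chromosome 9, 107975505 to 107984060, plus strand) had 24490 reads, 780 CPM (95% CI, 770 to 790) and 3660 reads per kilobase (95% CI, 3614 to 3706). *Ube2l6* (ENSMUSG00000027078.14, chromosome 2, 84798828 to 84810335, plus strand) had 14132 reads, 449.9 CPM (95% CI, 443 to 457) and 7080 reads per kilobase (95% CI, 6964 to 7198). *Herc6* (ENSMUSG00000029798.11, chromosome 6, 57581000 to 57664632, plus strand) had 23414 reads, 745 CPM (95% CI, 736 to 755) and 2520 reads per kilobase (95% CI, 2488 to 2552). Per kilobase, the levels in the cascade thus ran from modifier to E2 to E1 to E3.

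Per kilobase, the modifier was above each enzyme that attaches it. *Isg15* was 2.71-fold above *Ube2l6*, 5.24-fold above *Uba7* (95% CI, 5.13 to 5.34) and 7.60-fold above *Herc6* in reads per kilobase. With the longest annotated transcript as the length these ratios were 2.12, 2.83 and 3.90. The exon union of *Herc6* is 9292 bases against 4767 in its longest transcript, and that of *Uba7* is 6692 against 3620, where 10 of 15 annotated transcripts are retained-intron forms. The order from modifier to E3 was the same with either length, but it rested on the length correction. By CPM *Isg15* was at 1.03 of the level of *Ube2l6*, 0.592 of *Uba7* and 0.619 of *Herc6*.

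USP18 removes ISG15 from proteins and, apart from that, damps signalling at the type I IFN receptor. *Usp18* (ENSMUSG00000030107.10, chromosome 6, 121245906 to 121270917, plus strand) had the highest level of the 10 genes on both scales, with 90888 reads, 2894 CPM (95% CI, 2875 to 2913) and 32576 reads per kilobase (95% CI, 32366 to 32789). It ranked 27 among all 17664 genes with reads by CPM and 44 per kilobase. The gene for the protease was 1.70-fold above *Isg15* (95% CI, 1.67 to 1.73), 4.60-fold above *Ube2l6*, 8.90-fold above *Uba7* and 12.9-fold above *Herc6* per kilobase. With the longest transcript as the length these ratios were 2.68, 5.67, 7.59 and 10.4. The 5 genes of the ISG15 system held 0.533% of all reads.

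Mx proteins are dynamin-like GTPases that block virus replication, MX1 in the nucleus and MX2 in the cytoplasm of mouse cells. Most inbred laboratory strains carry *Mx1* alleles that give no working protein, so these transcript levels are no measure of Mx activity. *Mx1* (ENSMUSG00000000386.14, chromosome 16, 97447035 to 97462907, minus strand) had 28105 reads, 895 CPM (95% CI, 884 to 905) and 7425 reads per kilobase (95% CI, 7339 to 7513). *Mx2* (ENSMUSG00000023341.14, chromosome 16, 97535308 to 97560900, plus strand) had 5903 reads, 188 CPM (95% CI, 183 to 193) and 1633 reads per kilobase (95% CI, 1592 to 1676), the lowest of the 10 genes. *Mx1* was 4.55-fold above *Mx2* per kilobase (95% CI, 4.42 to 4.68) and 3.48-fold above it with the longest transcript as the length. GENCODE M21 lists *Mx1* as protein-coding and *Mx2* as a polymorphic pseudogene, whereas RefSeq lists both as transcribed pseudogenes. The paralogs shared runs of 50 identical bases, in windows that cover 4.37% of *Mx1* and 4.38% of *Mx2* transcripts and include other genes for *Mx1*, but none of 150 bases, the read length.

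ISG20 is an exonuclease that degrades RNA from the 3′ end. *Isg20* (ENSMUSG00000039236.18, chromosome 7, 78913424 to 78920396, plus strand) had 17204 reads, 548 CPM (95% CI, 539.6 to 556) and 9249 reads per kilobase (95% CI, 9112 to 9389). It ranked 4 of the 10 genes per kilobase and 7 by CPM.

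Viperin, the product of *Rsad2*, is a radical SAM enzyme that turns CTP into a chain-terminating analog, and CMPK2 is a mitochondrial kinase that phosphorylates UMP and CMP. *Rsad2* (ENSMUSG00000020641.16, chromosome 12, 26442746 to 26456452, minus strand) had 89481 reads, 2849 CPM (95% CI, 2830 to 2868) and 20642 reads per kilobase (95% CI, 20507 to 20777). *Cmpk2* (ENSMUSG00000020638.8, chromosome 12, 26469204 to 26479837, plus strand) had 29587 reads, 942 CPM (95% CI, 931 to 953) and 7107 reads per kilobase (95% CI, 7027 to 7189). *Rsad2* was 2.90-fold above *Cmpk2* per kilobase (95% CI, 2.87 to 2.94) and 2.36-fold above it with the longest transcript as the length.

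**Figure D2:**
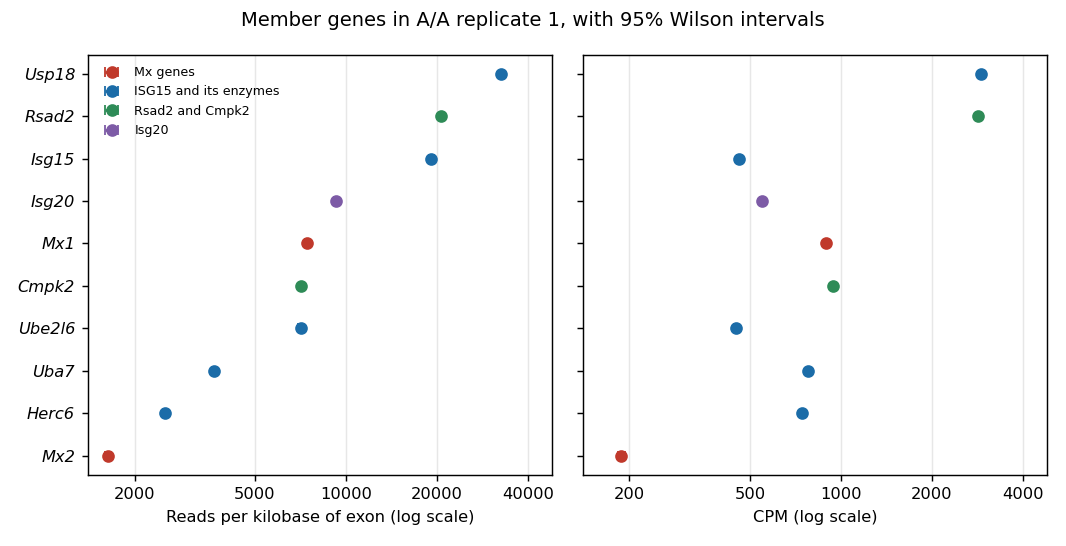
Levels of the 10 genes in A/A replicate 1, as reads per kilobase of exon (left) and CPM (right), both on log axes, ordered by the left panel. Points are the single library, coloured by gene group, and the bars are 95% Wilson intervals, mostly narrower than the points. *Usp18* and *Rsad2* lead and *Mx2* is last on both scales, while *Isg15* drops from place 3 to place 8 without the length correction.

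Per kilobase the order was *Usp18*, *Rsad2*, *Isg15*, *Isg20*, *Mx1*, *Cmpk2*, *Ube2l6*, *Uba7*, *Herc6* and *Mx2*, with 19.9-fold between the first and the last. Of the 9 pairs of neighbours in this order, 1 had overlapping intervals: *Cmpk2* and *Ube2l6*, with a ratio of 1.00 (95% CI, 0.984 to 1.02). *Rsad2* and *Isg15* were also close, at 1.08-fold (95% CI, 1.06 to 1.10), as were *Mx1* and *Cmpk2*, at 1.04-fold (95% CI, 1.03 to 1.06). The intervals cover counting error only, and differences as small as in these close pairs lie within what a different choice of length moved. With the longest transcript, *Ube2l6*, *Cmpk2* and *Mx1* took places 5, 6 and 7 and the other 7 genes kept theirs. The widest gap depended on the length too. With the exon union it was that between *Isg15* and *Isg20*, at 2.07-fold. With the longest transcript *Isg15* and *Isg20* had 19161 and 15827 reads per kilobase. The widest gap was then that between *Usp18* and *Rsad2*, at 51320 and 21361.

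The ISG15 enzymes have constitutive relatives that serve ubiquitin and other modifiers, and these were set beside them from lists of the families. *Usp18* had the highest level of 55 ubiquitin-specific protease genes, 391-fold above the median of the 43 relatives with reads. The next was *Usp25*, with 2948 reads per kilobase, and *Usp29* was lowest of those with reads, at 0.332. *Usp18* alone made up 75.3% of the summed reads per kilobase of this family.

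*Ube2l6* was first of 36 E2 genes per kilobase, followed by *Ube2b* with 1704, but ranked 2 by CPM. It was 17.1-fold above *Ube2l3* (95% CI, 16.4 to 17.8), its nearest relative, which works with ubiquitin and had 414 reads per kilobase. With the longest transcript as the length this ratio was 11.3. *Ube2l3* shared 28.6% of its exon bases with *Ydjc* on the opposite strand. *Uba7* was first of 10 E1 genes, 2.19-fold above *Uba1* (95% CI, 2.14 to 2.25), the main E1 of ubiquitin, and 3.42-fold with the longest transcript. *Herc6* was first of 5 HERC genes, 11.4-fold above *Herc4* and 18.0-fold above *Herc3*, or 9.92-fold and 18.2-fold with the longest transcript.

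Among the modifier genes, *Isg15* was at 0.513 of the level of *Ubb*, a ubiquitin gene with 37338 reads per kilobase, 9.94-fold above *Nedd8* and 6.71-fold above *Sumo2*. With the longest transcript as the length these ratios were 0.459, 6.49 and 4.06. *Ubd*, which encodes the IFN-γ-inducible modifier FAT10, was listed at 0. Runs of 150 bases shared with pseudogenes covered 36.3% of *Ubb*, so that its count is uncertain.

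*Mx1* and *Mx2* were both above each of the 7 genes listed as relatives, the dynamins, *Opa1* and the mitofusins. Guanylate-binding proteins, which are also related GTPases, were not in that list. *Mx1* was 7.10-fold above *Dnm2* and 6.95-fold above *Dnm1l*, which act in endocytosis and mitochondrial fission. *Mx2* was 1.56-fold above *Dnm2* (95% CI, 1.51 to 1.62) per kilobase and 1.06-fold above it by CPM. *Dnm1*, the neuronal dynamin, had 7 reads.

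*Isg20* ranked 2 of 7 DEDD exonuclease genes. It was 82.6-fold above *Isg20l2* (95% CI, 74.0 to 92.2) and 60.2-fold above *Aen* (95% CI, 56.2 to 64.3). With the longest transcript as the length these ratios were 141 and 87.9. *Trex1*, a DNA exonuclease, was above it with 35491 reads per kilobase, but 100% of the exon bases of *Trex1* lie within *Atrip* on the same strand, so its reads cannot be separated by position. *Cmpk2* was first of 15 nucleotide kinase genes, 10.5-fold above *Cmpk1* (95% CI, 10.1 to 11.0), its cytosolic counterpart, and 12.4-fold with the longest transcript.

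**Figure D3:**
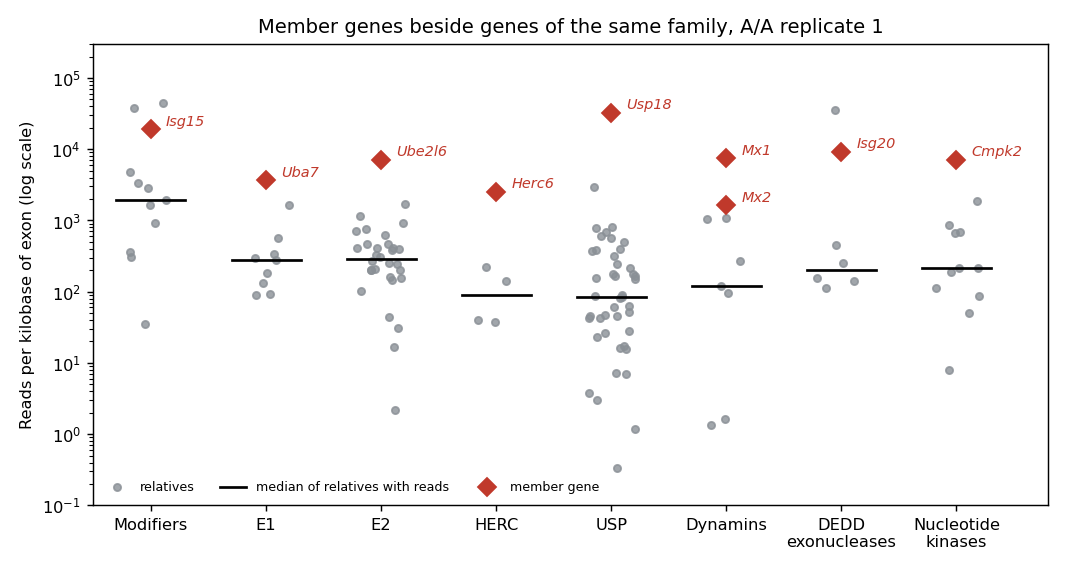
Reads per kilobase of exon (log axis) of 9 of the 10 genes (red diamonds) and of their listed relatives with reads (grey points, spread sideways for legibility) in A/A replicate 1. Black lines are the medians of the relatives. Every diamond lies above the line of its family, and outside the modifiers the only grey point above a diamond of its family is *Trex1*.

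Beside 32 other ISGs, from a list that leaves out the 10 genes, the levels spread over most of the range. Of these, 32 of 32 had reads, with a median of 4262 reads per kilobase against 7266 for the 10 genes. *Usp18* was passed by 3 of the 32, *Isg15* and *Rsad2* by 8 each, and *Isg20*, *Mx1*, *Cmpk2* and *Ube2l6* by 11 each. *Uba7* was passed by 19, *Herc6* by 26 and *Mx2* by 29. The highest of the 32 was *Bst2*, at 57646 reads per kilobase, which encodes the PDCA1 antigen used in the sort, and the lowest was *Eif2ak2*, the RNA-activated kinase PKR, at 632.

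The genes of the IFN receptor, JAK-STAT and IRF pathway that act upstream of ISGs had reads in 10 of 10 cases, with a median of 2931 reads per kilobase. *Irf7*, the main driver of type I IFN transcription in pDCs, was highest at 27881, and *Irf3* lowest at 355. *Stat2* and *Irf9*, whose products act together at the ISRE, had 5946 and 1972 reads per kilobase. *Usp18* was above *Irf7*, *Rsad2* and *Isg15* lay between *Irf7* and *Stat2*, and *Mx2* was below *Irf9*.

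*Rsad2* and *Cmpk2* lie head to head, on opposite strands, with 12751 bases between them, and no other gene is annotated in that gap. Within 50 kb of the pair were 4 other annotated genes: *Rnf144a* with 39 reads (5.31 per kilobase), *Mir6538* with 2 reads, and the pseudogenes AC156798.1 and AC156568.1, listed at 0. *Mx1* and *Mx2* also point away from each other, over a gap of 72400 bases that holds *Fam3b* with 53 reads (29.2 per kilobase), *Gm9242* with 5 reads and *Gm24777* at 0. On the far sides, *Bace2* and *Tmprss2* were listed at 0. The limit that a count of 0 allows was taken as the level of 3 reads, 0.0955 CPM, for counting error only.

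**Figure D4:**
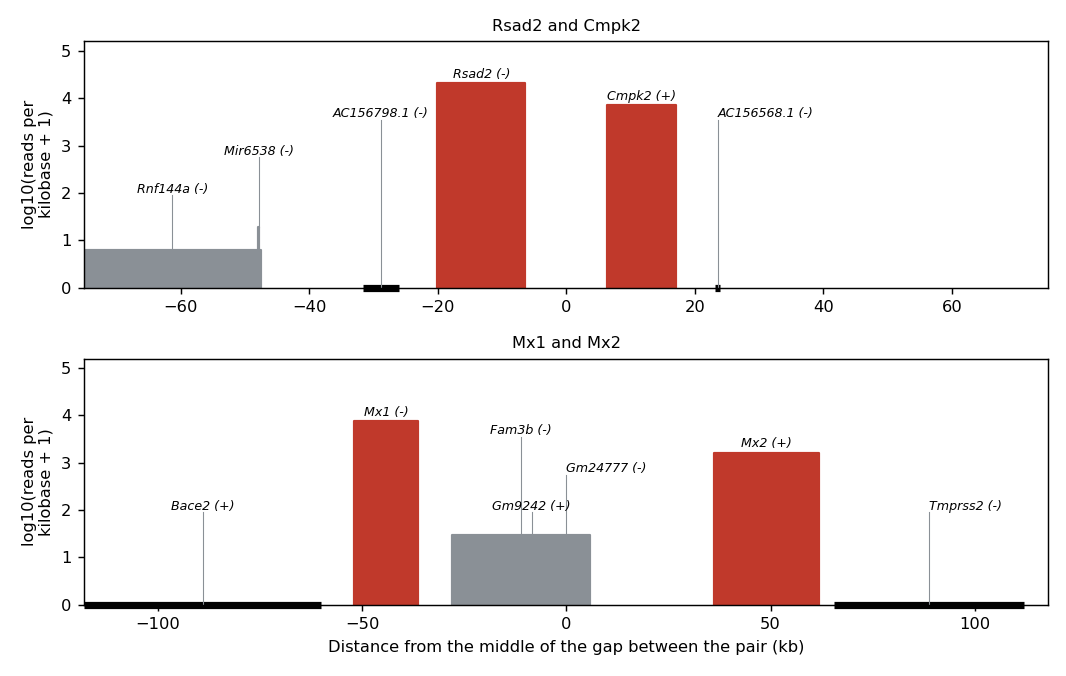
Levels of *Rsad2* and *Cmpk2* (top) and of *Mx1* and *Mx2* (bottom), in red, with the annotated genes within 50 kb, in grey, in A/A replicate 1. Bars span each gene along the distance from the middle of the gap (kb) and reach to log10 of reads per kilobase of exon plus 1. Thick black lines on the axis mark genes listed at 0, thin lines only join names to genes, strands are in brackets, and genes that run past the edge are clipped. *Mir6538* and *Gm9242* are narrow and overlap *Rnf144a* and *Fam3b*. The red bars stand above 3 on this scale and no grey bar reaches 2.

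The neighbours of the other genes were also lower. Over the 10 genes there were 57 entries of annotated neighbours within 50 kb, of which 24 were listed at 0 and 56 were below the gene they neighbour. The exception was *Rsad2* beside *Cmpk2*. In the whole file 17664 of 52550 genes had reads, and each of the 10 genes lay at percentile 94.3 or higher of these per kilobase. Most genes of the file would thus also be lower, so these counts do not set the neighbours apart. The highest neighbour of *Isg15* was *AW011738*, at 1752 reads per kilobase, and that of *Usp18* was *Gm44148*, at 690.

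Overlap with other genes touched 3 of the 10. *Herc6* shared 13.7% of its exon bases with *Gm45193* on the same strand, which had 83 reads. *Usp18* overlapped *Gm44148* on the opposite strand over 4.44% (218 reads), and *Uba7* overlapped *Gm20661* on the same strand over 3.48% (10 reads). Whether counting used strand is not given in the sources used here. With the shared bases taken off the length and all reads kept, the levels per kilobase were 2918 for *Herc6*, 34092 for *Usp18* and 3792 for *Uba7*. All 10 genes kept their place in the order. Reads within the shared bases were not removed, so these levels could only rise. The unchanged order does not show how much such reads matter. Runs of 150 bases shared with another gene covered 8.69% of *Herc6* and 0.998% of *Uba7* transcripts and were not found in the other 8.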

How the data were processed

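Total RNA of sorted splenic pDCs was made into mRNA libraries and sequenced as 150 bp paired-end reads. The submitters' processing notes name HISAT2 and StringTie, without versions or roles, and the builds mm8 and mm10. The counting tool, the annotation release and the use of strand are not given in the sources used here. Each gene carries a deposited value, a normalized signal whose unit the authors do not state. Division of the column by its smallest step gave whole numbers in 100% of nonzero values (tolerance 0.01), and these were taken as reads. The planned test for genotypes, DESeq2 in the study's methods, needs more libraries and was not run.

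CPM is reads scaled to a total of 1000000. Wilson 95% intervals cover counting error only, since PCR copies are not independent, and their bounds lay, as the mean of both sides, at most 2.55% from the CPM for the 10 genes. Log2 levels used a pseudocount of 1. Percentiles counted ties by their midpoint. Exon lengths came from GENCODE M21, which matched 99.7% of gene identifiers and gave identical coordinates for 95.2% of these and for 10 of 10 of the genes described. The computations used Python 3.11.15, numpy 2.4.6, pandas 2.3.3, scipy 1.17.1 and matplotlib 3.10.9 and were tested on simulated data. Families were listed by hand or by symbol prefix, leaving out *Usp6nl* and *Ube2cbp*, which share a prefix but belong to other families. The genes and lists were chosen with earlier results of these data known. The rule for naming took all 10 genes, direct relatives of each, genes of the IFN signalling pathway, the highest and lowest gene of each list, and the genes within 50 kb of either pair. Some genes under this rule are not reported here. The other genes named, which include the next gene in a family, overlapping genes and highest neighbours, were chosen after their values were seen.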

Additional observations from a re-analysis of the deposited data

How the results depend on the processing

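With 1 library there was no replicate to leave out, and no spread between samples to set a difference against. No paired analysis was possible because a single library of a single genotype was used. The median log2 level of the 10 genes was 9.58 with a pseudocount of 1 and 9.57 with 0.1. Their median percentile was 98.9 by CPM among genes with reads, 99.6 among all genes, 98.6 among genes with at least 10 reads, 98.5 among protein-coding genes with reads and 98.8 per kilobase. In the order of levels, 8 of 10 genes kept their place with the longest transcript as the length. Without length correction 3 of 10 did (*Usp18*, *Rsad2* and *Mx2*). With unshared exon bases as the length 10 of 10 did, but this changed the length of 3 genes only and kept all reads. Each of the 9 genes compared with a family stayed above the median of its relatives by CPM and with relatives of at least 10 reads. The number of promoters with the ISRE core fell from 2 to 0 when CT had to follow it and rose to 5 when 1 mismatch was allowed, a search chosen after seeing the data. At this depth counting error is small beside the choice of gene length, which moved the level per kilobase of 9 of the 10 genes by more than its interval.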
